A study of Rattus norvegicus with 4 samples.

Results

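The microRNAs miR-532, miR-188, miR-362, miR-501 and miR-500 come from 5 hairpins that lie one after another on chromosome X, inside the span of Clcn5, the gene of an endosomal chloride/proton exchanger. Their probes were chosen by name (rno-miR-188, rno-miR-362, rno-miR-500, rno-miR-501, rno-miR-532 or miR-660, alone or with an arm). No measured value entered this rule, but earlier results of these data were known when it was set. This gave 10 probes, a 5p and a 3p arm for each of 5 hairpins, out of 761 rat miRNA probes, and miR-660 was not analysed here. The arrays came from primary hepatocytes, the parenchymal cells of the liver, and primary liver sinusoidal endothelial cells (LSECs), the fenestrated endothelium of its capillaries. All cells were from untreated Sprague-Dawley rats aged 10 weeks, male per the series title, with 2 samples per cell type and 1 array per sample. Whether different rats gave these samples is not stated in the labels, so p-values measure only the spread between these samples, which may be technical. A sample is a population of cells, so fewer cells carrying a miRNA and less of it per cell cannot be told apart.

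A miRNA hairpin is cut from its primary transcript by Drosha and then by Dicer into a duplex of a 5p and a 3p strand. One strand is usually loaded into an Argonaute protein and the other is degraded, so the arms of a hairpin can differ widely in level although they are made together. The loaded strand finds its targets mainly through its seed, bases 2 to 8. Members of the cluster are best known from other settings: human miR-362-5p represses CYLD, a brake on NF-kB signalling, human miR-500 has been studied as a liver cancer marker, and miR-501-3p and miR-188 act on glutamate receptor and neuropilin messages in rat neurons.

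The cluster covers chrX:17919185-17930726 (GRCr8, plus strand), 11542 bases within the 154585 bases of Clcn5 at chrX:17857260-18011844. The hairpin order is miR-532, miR-188, miR-362, miR-501 and miR-500. Only 321 bases separate miR-532 from miR-188, a gap of 6820 bases follows, and then 639 bases lie between miR-362 and miR-501 and 3374 between miR-501 and miR-500. The mature sequences below, from RefSeq, show which arms share a seed, 5' to 3', with the seed (bases 2 to 8) in capitals. RefSeq's table matched 9 of the 10 members by name, and miR-362-5p is named only.
miR-532-5p: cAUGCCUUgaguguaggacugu
miR-532-3p: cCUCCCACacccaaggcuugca
miR-188-5p: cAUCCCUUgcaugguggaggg
miR-188-3p: cUCCCACAugcaggguuugc
miR-362-3p: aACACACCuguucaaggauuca
miR-501-5p: aAUCCUUUgucccuggguga
miR-501-3p: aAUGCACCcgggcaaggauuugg
miR-500-5p: aAUCCUUGcuaucugggugcuuag
miR-500-3p: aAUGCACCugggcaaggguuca
Only miR-501-3p and miR-500-3p shared a seed among these, and they were identical at 18 of 22 aligned bases, the closest pair among the 9 members with a sequence. The next closest, miR-188-3p and miR-532-3p, were identical at 16 of 20 bases, miR-362-3p and miR-500-3p at 17 of 22, and miR-500-5p and miR-501-5p at 15 of 20. All listed arms of miR-532 and miR-188 begin with C, and those of miR-362, miR-501 and miR-500 with A. Each member had 1 spot per array, and cross-hybridisation between such close sequences was not tested.

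Signals are given first as the spot median minus the mean blank spot of that array, in intensity units, and a probe counted as detected above that mean plus 2 SD. This limit was 3.43 and 5.26 units for hepatocytes, and lower for LSECs, at 2.31 and 2.48 units. These signals are not scaled between arrays, and the median spike control spot read 17818 and 29943 units for hepatocytes against 12305 and 12553 for LSECs. On the arrays, 563 and 596 probes were detected in hepatocytes and 680 and 660 in LSECs. All 10 members were detected on both LSEC arrays, and 9 of them on both hepatocyte arrays. Members read 3.36 to 34.1 units in hepatocytes, that is 1.96 to 12.96 blank SDs, and 4.22 to 174 units in LSECs, that is 3.66 to 144 blank SDs. Levels of different probes are not compared here, since each probe has its own brightness per molecule.

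Both arms of miR-362 and miR-532 and the 3p arms of miR-500 and miR-501 were higher in LSECs. By contrast, the 5p arm of miR-501 was called higher in hepatocytes, and miR-500-5p and both arms of miR-188 had no call. Differences below are LSEC minus hepatocyte on a log2(intensity + 50) scale after background correction and quantile normalization, with the standard error of the fit (2 arrays per cell type). They were tested with limma over 652 miRNAs, those above the detection limit in both samples of either cell type, with Benjamini-Hochberg adjustment over all of them. The added 50 shrinks differences of dim probes, so ratios of the mean signals above the blanks are also given for the 9 members detected on all 4 arrays.

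**Figure D1:**
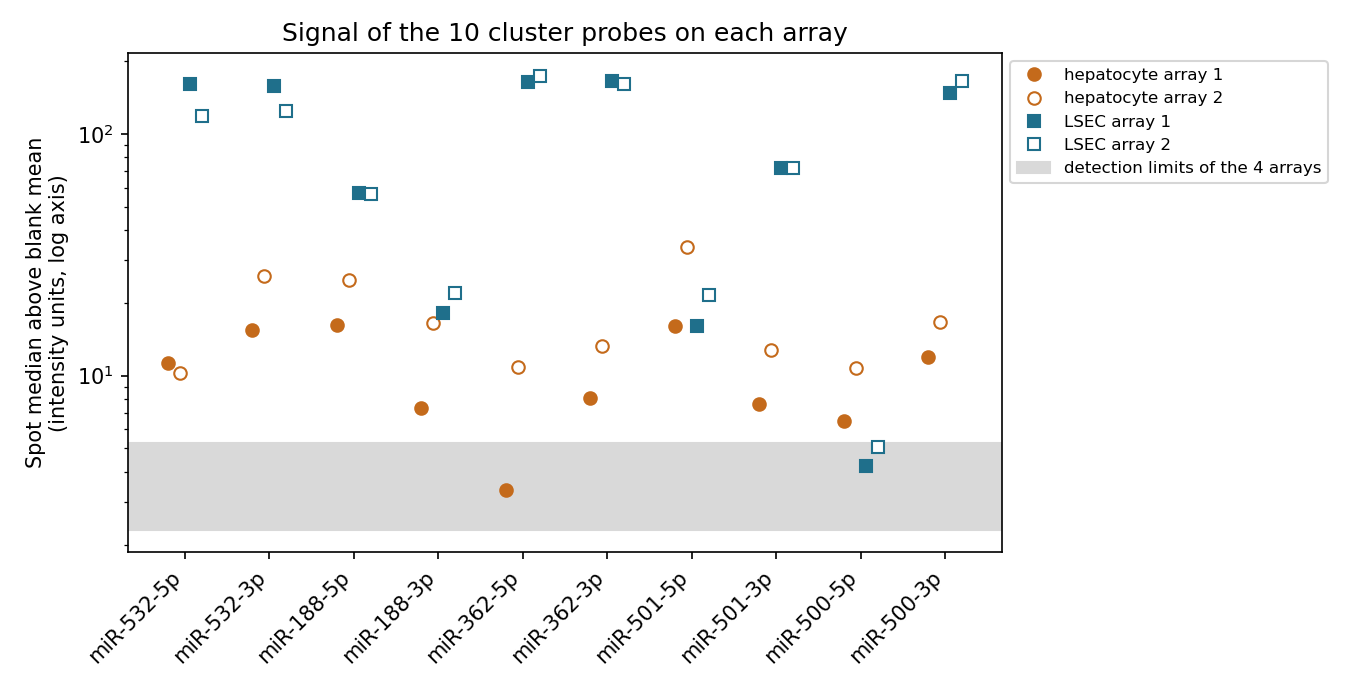
Spot median above the mean of the blank spots (intensity units, log axis) for the 10 cluster probes, in genomic order, on the 2 hepatocyte arrays (circles) and 2 LSEC arrays (squares). The grey band spans the detection limits of the 4 arrays, 2.31 to 5.26 units. The probes of miR-532, miR-362, miR-501-3p and miR-500-3p stand between 72.1 and 174 units in LSECs and at or below 25.9 units in hepatocytes, while miR-500-5p reads lower on both LSEC arrays than on either hepatocyte array.

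The largest difference was that of miR-362-5p. It read 3.36 and 10.9 units in hepatocytes, the first of these under the detection limit, and 164 and 174 units in LSECs. Its fitted difference was 1.43 ± 0.05 (limma adjusted p = 0.000207), which ranked 30th of 652 on the LSEC side. The other arm, miR-362-3p, read 8.10 and 13.3 units in hepatocytes against 166 and 161 units in LSECs. It differed by 1.27 ± 0.05 (limma adjusted p = 0.000189), and its mean signal was 15.3 times higher in LSECs. No hepatocyte array came near an LSEC array for either arm.

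For miR-532-5p the hepatocyte arrays read 11.3 and 10.2 units and the LSEC arrays 160.2 and 119 units. The fitted difference was 1.10 ± 0.14 (limma adjusted p = 0.00728), and the mean signal was 13 times higher in LSECs. Its partner miR-532-3p read 15.5 and 25.9 units in hepatocytes against 158 and 125 units in LSECs, a ratio of 6.83 and a difference of 0.82 ± 0.09 (limma adjusted p = 0.00517). LSEC array 1 stood above LSEC array 2 for both arms, and these arms had the largest standard errors among the members. Their calls did not hold in every fit with 1 array left out. That of miR-532-5p ended without hepatocyte array 2 or LSEC array 1, and that of miR-532-3p when either hepatocyte array was left out. Such a fit leaves 1 sample in a cell type, and fewer miRNAs were called in each of them. Over all 4 omissions the differences stayed between 0.84 and 1.40 for miR-532-5p and between 0.62 and 0.92 for miR-532-3p.

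The seed-sharing 3p arms were also higher in LSECs. For miR-500-3p the signals were 11.9 and 16.7 units in hepatocytes against 147 and 166 units in LSECs, with a difference of 1.07 ± 0.05 (limma adjusted p = 0.000410). For miR-501-3p they were 7.64 and 12.7 units against 72.6 and 72.1 units, with a difference of 0.64 ± 0.04 (limma adjusted p = 0.000992). The mean signal of miR-500-3p was 10.95 times and that of miR-501-3p 7.10 times higher in LSECs. In both cases the cell types were well apart, and both calls held without any 1 array.

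The 5p arms of the same hairpins were not higher in LSECs on the reported scale. The signal of miR-500-5p was 6.49 and 10.8 units in hepatocytes against 4.22 and 5.08 units in LSECs, close to the detection limit throughout and lower on both LSEC arrays. Its difference was -0.12 ± 0.04 (limma adjusted p = 0.0746), with a 95% interval of -0.23 to -0.02 before adjustment for the number of miRNAs. It was called higher in hepatocytes with median scaling (-0.24, limma adjusted p = 0.0225), with the 75th percentile (-0.51, limma adjusted p = 0.00113) and in the authors' values (-1.23, limma adjusted p = 0.00177), and spike scaling gave 0.0247 without a call. Its mean signal in LSECs was 0.539 times that in hepatocytes. For miR-501-5p the hepatocyte signals were 16.04 and 34.1 units and the LSEC signals 16.12 and 21.6 units, which overlap as measured, with a mean ratio of 0.752. After normalization they no longer overlapped, at 6.43 and 6.61 against 6.11 and 6.18 on the log2 scale, and the difference was -0.37 ± 0.08 (limma adjusted p = 0.0277). The call was lost without normalization (limma adjusted p = 0.625) and with median scaling (limma adjusted p = 0.0848). It was also lost on leaving out hepatocyte array 2, LSEC array 1 or LSEC array 2, which leaves 1 sample in a cell type. Over the omissions of single arrays the difference stayed between -0.54 and -0.30. Scaling by the spike control spots turned the difference of miR-501-5p to 0.18.

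The arms of miR-188, the hairpin next to miR-532, differed little on the reported scale. Its 5p arm read 16.3 and 24.9 units in hepatocytes against 57.1 and 56.6 units in LSECs, a mean signal 2.76 times higher in LSECs without overlap, but the difference of 0.17 ± 0.05 was not called (limma adjusted p = 0.0574). It was called with median scaling (0.44, adjusted p = 0.00467), without normalization (0.52, adjusted p = 0.0212), with spike scaling (0.95, adjusted p = 2.11e-05) and in the authors' own values (1.11, adjusted p = 0.00259). The authors' scaled levels of miR-188-5p were 39.2 and 38.9 in hepatocytes against 88.7 and 79.9 in LSECs. The 3p arm, miR-188-3p, read 7.32 and 16.6 units in hepatocytes against 18.2 and 22.0 units in LSECs. Its difference was 0.02 ± 0.06 (limma adjusted p = 0.844), with a 95% interval of -0.14 to 0.18, and it was the only member whose normalized values overlapped between the cell types, although its signals above the blanks did not (mean ratio 1.68). Scaling alone called it in either direction, at -0.24 with the 75th percentile (limma adjusted p = 0.0205) and at 0.40 with the spikes (limma adjusted p = 0.00168).

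**Figure D2:**
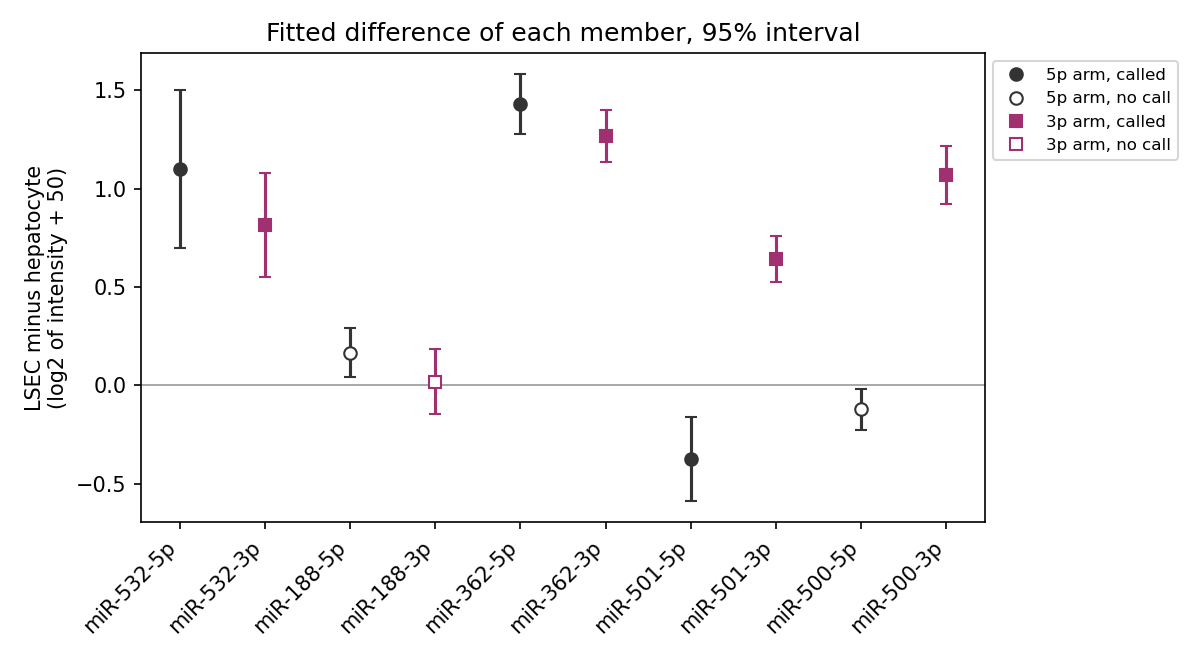
LSEC minus hepatocyte difference of each member (log2 of intensity + 50), in genomic order, with the unadjusted 95% interval of the fit. Circles are 5p arms, squares are 3p arms, and filled symbols had a limma adjusted p under 0.05. The arms of miR-532 and of miR-362 lie close together, those of miR-501 and of miR-500 lie on opposite sides of 0, and those of miR-188 lie near 0.

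In all, 6 of the 10 members were called higher in LSECs, against 18.6% of the 652 miRNAs tested, and 1 was called higher in hepatocytes, against 18.3%. Being called at all was true of 36.8% of the miRNAs tested. The members' median difference was 0.73, and that of all miRNAs tested was 0.00. On the added-50 scale, 4 members were called higher in LSECs by at least 2-fold, against 6.75% of those tested. They were both arms of miR-362, miR-532-5p and miR-500-3p. The called miR-532-3p and miR-501-3p fell short on that scale, though their mean signals above the blanks were 6.83 and 7.10 times higher in LSECs. Normalized values did not overlap between the cell types for 9 members, against 71.3% of those tested. All 9 but miR-500-5p and miR-501-5p lay higher in LSECs, while 36.5% of those tested were higher in LSECs without overlap. The members come from neighbouring hairpins and in part resemble each other in sequence, so they are not independent of one another.

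Scaling changed the size of these differences but not the direction of the calls on the LSEC side. The 6 members called higher in LSECs were called in that direction under every scaling in which they had a value (median, 75th percentile, none, cyclic loess, spike control spots and the authors' values, which lacked miR-362-5p). The median of all tested miRNAs itself lay at -0.33 after 75th percentile scaling, at 0.27 after spike scaling and at 0.28 in the authors' values. Relative to these, the median of the members was 1.09, 1.31 and 2.14 higher. In the authors' values, which carry no added 50, miR-362-3p differed by 3.59, miR-532-5p by 3.30, miR-500-3p by 3.08, miR-501-3p by 2.48 and miR-532-3p by 2.42. With the local background that the scanner files list subtracted instead, 5 of the 6 LSEC-side calls ended and only that of miR-362-5p (0.52) was kept. This also turned the differences of miR-362-3p, miR-532-3p and miR-532-5p to -0.12, -0.26 and -0.16, without a call. That background followed the brightness of its spot (r = 0.964 to 0.982 on the log2 scale across the 761 miRNA probes, which are not independent replicates), and it exceeded the spot itself for 2 or 3 of the 10 members on 3 of the arrays. For miR-362-3p on LSEC array 1, for example, it was 259 units against a spot median of 237.

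**Figure D3:**
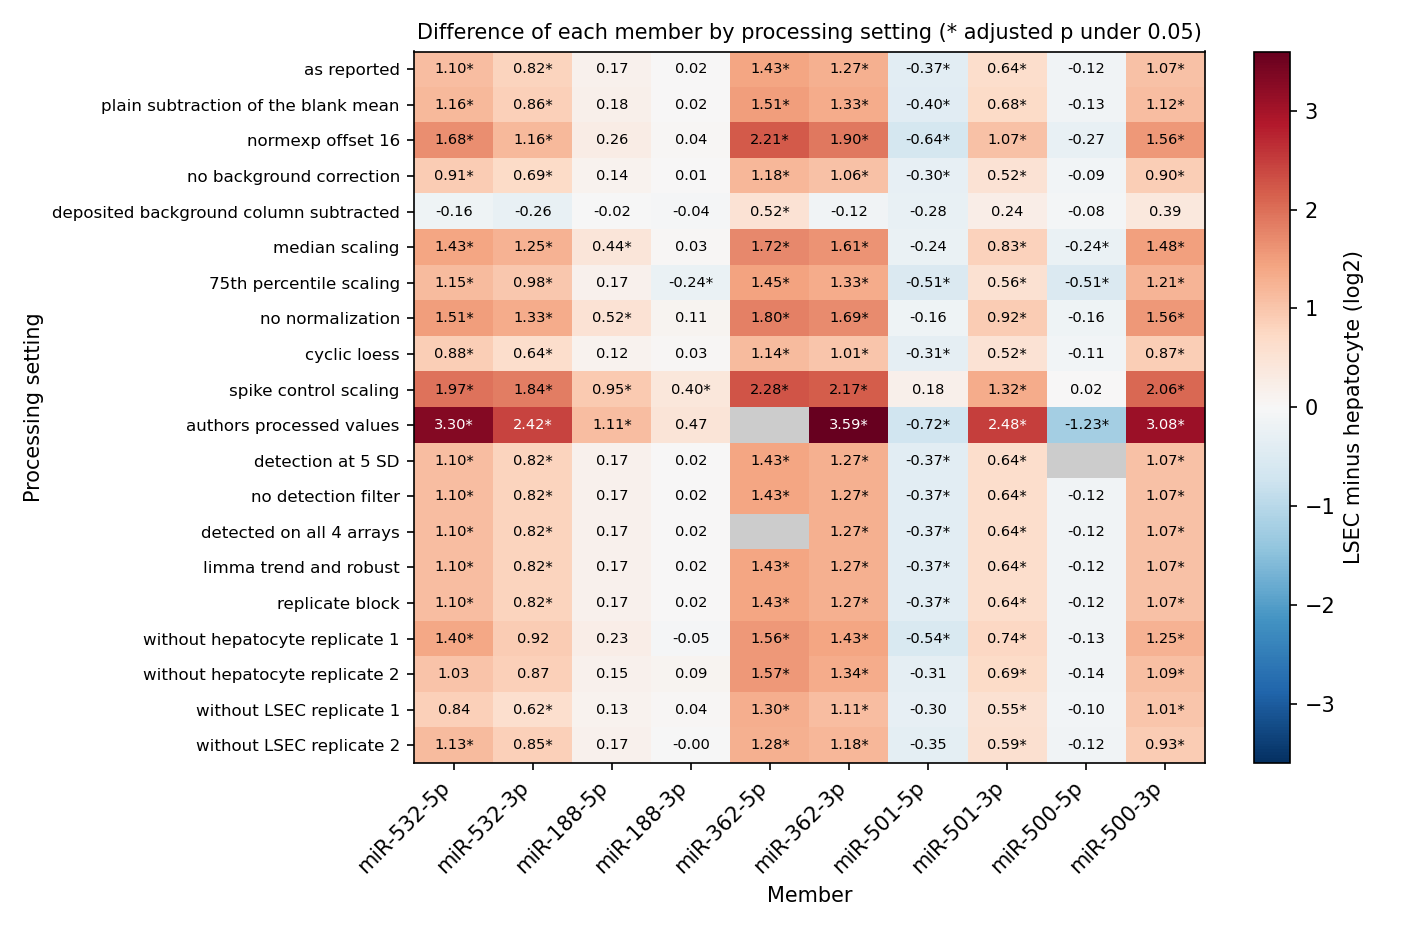
LSEC minus hepatocyte difference (log2) of each member under the reported processing and 19 alternatives. Colour and number give the difference, an asterisk marks a limma adjusted p under 0.05, and grey cells had no value. Outside subtraction of the deposited background column, the columns of miR-532, miR-188-5p, miR-362, miR-501-3p and miR-500-3p stay positive. With it, those of miR-188-5p, miR-362-3p and both arms of miR-532 turn negative. The columns of miR-188-3p, miR-500-5p and miR-501-5p change sign between settings.

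Within hairpins, the arms of miR-500 and miR-501 diverged between the cell types. The question here is whether the 5p minus 3p difference, taken within each array, changed from hepatocytes to LSECs. On the added-50 scale, equal folds of arms with unlike brightness do not cancel fully, so the level of each probe still enters. The hairpins are shown with the arms in capitals, 5p first.
miR-501 hairpin: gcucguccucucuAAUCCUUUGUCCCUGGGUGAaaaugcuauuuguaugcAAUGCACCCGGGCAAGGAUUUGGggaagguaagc
miR-500 hairpin: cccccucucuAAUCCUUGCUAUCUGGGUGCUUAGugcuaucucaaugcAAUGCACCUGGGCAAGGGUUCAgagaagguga
For miR-500 the 5p minus 3p difference was -0.24 and -0.19 in hepatocytes but -1.38 and -1.43 in LSECs. The change was -1.19 ± 0.08 (limma adjusted p = 4.53e-05, over 213 hairpins with both arms tested). For miR-501 it went from 0.33 and 0.52 to -0.65 and -0.52, a change of -1.02 ± 0.10 (limma adjusted p = 0.000333). Both hairpins therefore moved toward the 3p arm in LSECs, by amounts far above the spread between arrays of a cell type. Neither the miR-532 hairpin (0.29 ± 0.11, limma adjusted p = 0.0687), nor that of miR-362 (0.16 ± 0.09, limma adjusted p = 0.173), nor that of miR-188 (0.15 ± 0.10, limma adjusted p = 0.250) was called, with 95% intervals of 0.02 to 0.55, -0.05 to 0.37 and -0.09 to 0.38. A change of the arm difference was common on these arrays, called for 54.9% of the 213 hairpins (23.9% toward the 3p arm, 31.0% toward the 5p arm), so 2 of 5 is not a high share. That count also depends on the processing. The arm difference of miR-188 was called at 0.41 with median or 75th percentile scaling or no normalization (limma adjusted p = 0.0123) and at 0.54 with spikes (limma adjusted p = 0.00151). That of miR-532 was called at 0.51 with an offset of 16 (limma adjusted p = 0.0324), at 0.29 with limma's trend and robust options (adjusted p = 0.0304) and at 0.48 without hepatocyte array 1 (limma adjusted p = 0.0102). On the added-50 scale a dim arm can move little, and miR-500-5p lay near the detection limit. With an offset of 16 the changes were -1.83 for miR-500 and -1.70 for miR-501. In the authors' values without the added 50 the changes were -4.31 for miR-500 and -3.20 for miR-501. Both calls held under all alternatives in which the hairpin had a value, except subtraction of the deposited background column (-0.47, limma adjusted p = 0.217, and -0.52, limma adjusted p = 0.0780). With detection at 5 SD the miR-500 hairpin had no value, since miR-500-5p read at most 4.10 blank SDs on any array.

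**Figure D4:**
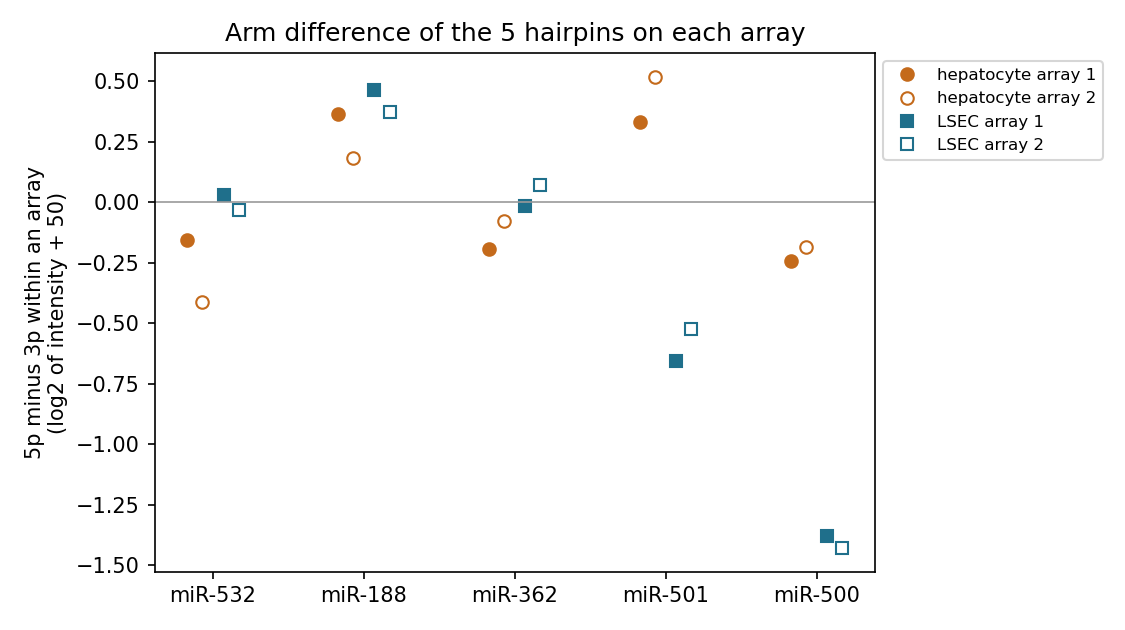
Difference between the 5p and the 3p probe within each array (log2 of intensity + 50) for the 5 hairpins in genomic order, hepatocyte arrays as circles and LSEC arrays as squares. The miR-501 and miR-500 hairpins fall from between -0.24 and 0.52 in hepatocytes to between -1.43 and -0.52 in LSECs, and the other hairpins shift by less than 0.3.

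Members of neighbouring hairpins also changed by unlike amounts between the cell types. After the values had been seen, each arm was set against the same arm of other hairpins within 20000 bases on the same strand, as a difference within each array. Over all 510 such pairs on the arrays, limma called a change between the cell types for 43.1%, and among the 20 pairs within the cluster for 15. Most of these 15 include an arm of miR-188, miR-500-5p or miR-501-5p, which had no LSEC-side call. Both members were called higher in LSECs only for miR-362-3p with miR-501-3p or miR-532-3p, and for miR-500-3p with miR-501-3p. On the added-50 scale the level of each probe enters these differences too. Each probe enters several pairs, so the calls are not independent, and many of the 510 pairs come from a single other cluster, that of miR-329. Among pairs of members, 11 of 16 were called in the authors' values and 0 of 20 with the deposited background column subtracted. The adjacent miR-188 and miR-532 were among the 15 called. The difference of miR-188-5p minus miR-532-5p went from 0.19 and 0.38 in hepatocytes down to -0.78 and -0.53 in LSECs, a change of -0.93 ± 0.11 (limma adjusted p = 0.000980). For their 3p arms the change was -0.80 ± 0.11 (limma adjusted p = 0.00177). In the authors' values these changes were -2.19 and -1.95. The LSEC excess of miR-500-3p was larger than that of the seed-sharing miR-501-3p on the reported scale, by 0.43 ± 0.08 (limma adjusted p = 0.00575), but this call ended in the authors' values (0.60, adjusted p = 0.130). No call was made for miR-362-3p against miR-500-3p (0.20 ± 0.08, limma adjusted p = 0.0975, 95% interval 0.00 to 0.40) or for miR-362-5p against miR-532-5p (0.33 ± 0.15, limma adjusted p = 0.135, 95% interval -0.05 to 0.70).

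Some members share a seed with miRNAs from other loci, which can be set beside them. The seed of miR-532-5p is also that of miR-511-5p, from a hairpin on chromosome 17, best known from the intron of the mannose receptor gene Mrc1. The seed of miR-362-3p is also that of miR-329-3p, from chromosome 6, a miRNA of the imprinted Dlk1-Dio3 region.
miR-511-5p: cAUGCCUUuugcucugcacuc
miR-329-3p: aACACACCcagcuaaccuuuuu
Neither was called on the reported scale. The signal of miR-511-5p was 2.66 and 8.17 units in hepatocytes, detected on 1 of these arrays, and 9.25 and 13.3 units in LSECs (0.11 ± 0.05, limma adjusted p = 0.174). The signal of miR-329-3p was 4.58 and 8.41 units in hepatocytes against 7.69 and 12.4 units in LSECs (0.05 ± 0.05, limma adjusted p = 0.466), with overlapping signals. Scaling called both in either direction. With the 75th percentile miR-511-5p lay at -0.29 (limma adjusted p = 0.0121) and miR-329-3p at -0.34 (limma adjusted p = 0.00676), and with spikes they lay at 0.28 (limma adjusted p = 0.00889) and 0.22 (limma adjusted p = 0.0240). The difference between a member and the outside probe with its seed was not tested. Among the other members' seeds, no further probe on the array shared one by RefSeq's sequences, which matched 685 of the 761 probes by name. The seed of miR-362-5p, which had no mature sequence there, was not compared. Its hairpin holds AUCCUUG, the seed of miR-500-5p, on the 5' side, so miR-362-5p and miR-500-5p may share a seed.

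Among other chromosome X miRNAs, the share called higher in LSECs was near that of all miRNAs. Apart from the 10 members, 100 probes map to chromosome X alone and 78 were tested, of which 16 (20.5%) were called higher in LSECs and 13 higher in hepatocytes, with a median difference of 0.00. The largest LSEC excesses among them were those of miR-322-5p (3.08 ± 0.14, limma adjusted p = 0.000343), miR-450b-5p (2.29 ± 0.06, limma adjusted p = 8.64e-05) and miR-450a-5p (2.26 ± 0.06, limma adjusted p = 6.60e-05), all from another X-linked cluster. On the hepatocyte side stood miR-652-5p (-1.72 ± 0.07), miR-505-3p (-1.497 ± 0.16) and miR-3573-3p (-1.07 ± 0.16), with limma adjusted p of 0.000212, 0.00385 and 0.0112. These hepatocyte-side values depended on the scaling. That of miR-652-5p was -0.71 with the 75th percentile, lost its call with median scaling (-0.44, limma adjusted p = 0.124) and without normalization (-0.36, limma adjusted p = 0.337), and turned to a call at 0.54 with spikes. Spike scaling also turned miR-3573-3p to 1.31, and it was positive under each other scaling but cyclic loess. The call of miR-505-3p was lost in 6 of 19 alternatives, among them median scaling (-0.73), no normalization (-0.65) and spikes (-0.0072). One of these 16, miR-3560, comes from a hairpin within the span of the cluster but on the opposite strand, which overlaps the miR-501 hairpin and was looked at after the values had been seen. Its signal was 16.8 and 32.8 units in hepatocytes against 77.7 and 75.7 units in LSECs, with a difference of 0.26 ± 0.06 (limma adjusted p = 0.0400). That call was lost whichever array was left out, in fits with 1 sample in a cell type, and the difference lay between 0.19 and 0.35 there.

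The miRNAs whose pattern over the 4 arrays lay nearest to the mean of the 9 members detected on all arrays were miR-652-3p, miR-331-3p and miR-678, by Euclidean distance of centred log2 values among 473 candidates. Their distances were 0.04, 0.05 and 0.07, and they differed by 0.49 ± 0.04, 0.54 ± 0.04 and 0.52 ± 0.06 (limma adjusted p of 0.00191, 0.00167 and 0.00427). The call of miR-678 was lost on leaving out either LSEC array, which leaves 1 LSEC sample. Its difference lay between 0.44 and 0.66 over the omissions of single arrays. With only 4 arrays in 2 groups, likeness here means little more than a difference of similar size, and the mean profile of the members averages arms with differences of opposite sign.

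Markers of other cells moved with the cell types. All 5 hepatocyte markers (both arms of miR-122, miR-192-5p, miR-194-5p, miR-148a-3p) were higher in hepatocytes and both arms of the endothelial miR-126a were higher in LSECs, in the direction of the labels. Of 6 leukocyte and Kupffer cell markers, 6 were higher in LSECs, with a summed signal of 47.7 and 61.0 units in hepatocytes against 2157 and 2725 units in LSECs, and 1 of them, miR-155-5p, was detected on no hepatocyte array. Of 5 stellate and mesenchymal markers, 5 were higher in LSECs, at 46.9 and 87.1 against 1613 and 1393 units in sum, and miR-199a-3p was detected on no hepatocyte array. All markers of both lists were detected on both LSEC arrays, and their part in the LSEC values of the cluster was not tested. Cholangiocyte markers ran the other way, 3 of 5 higher in hepatocytes, at 60.7 and 120.2 against 30.0 and 38.0 units. Of 3 erythroid markers 1 was called higher in hepatocytes after normalization. Their summed signals, which are not scaled between arrays, overlapped, at 63.1 and 80.8 units in hepatocytes against 79.6 and 88.1 units in LSECs. Among all 652 miRNAs tested, 18.6% were called higher in LSECs and 18.3% higher in hepatocytes.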

How the data were processed

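Total RNA of 4 samples was labelled with Cy5 and hybridised to single-colour Toray 3D-Gene arrays, per the labels' protocols. The deposited scanner files give spot medians at 635 nm as linear intensity with the background still in, merged from scans at 3 gains, per the file headers. The authors' deposited table gives processed intensity values of unstated scale. Set against the scanner files, they were the spot median minus the blank mean times 1 constant per array (coefficient of variation 0.152 to 0.291%), with a median of 25 over the listed miRNAs.

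Spot medians were background-corrected by normexp (offset 50, all spots), and the 761 miRNA probes quantile-normalized and tested with limma 3.58.1 in R 4.3.3 (lmFit, eBayes, Benjamini-Hochberg, threshold 0.05). Blank statistics left out the top and bottom 5% of blank spots. No miRNA spot carried a quality mark (0 on each array). An exact permutation test of 2 against 2 samples cannot go below a 2-sided p of 0.333, so no such test is given and calls use limma's moderated variance. Values of 1 group are given per array, and the number of arrays limits their precision. The functions were tested on simulated data. Sequences and coordinates come from RefSeq (GRCr8), with alignments by Biopython 1.88.

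The named miRNAs were all cluster probes, outside miRNAs sharing a member's seed, the 3 nearest profiles, and at most 3 called chromosome X miRNAs per direction. The members and lists were chosen with earlier results of these data known. The test of neighbouring pairs and the look at miR-3560 were added after seeing the data. Deviations of same-numbered samples correlated at 0.03 across miRNAs, and the replicate numbers were not used as pairs. With 2 samples per cell type this correlation cannot show whether same-numbered samples came from the same rat. Alternatives changed the background correction, offset, scaling, detection filter, limma options, replicate block and each array in turn.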

Additional observations from a re-analysis of the deposited data

How the results depend on the processing

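Among the members, both arms of miR-362, miR-500-3p and miR-501-3p kept their direction and call under every alternative in which they had a value except subtraction of the deposited background column, where miR-362-5p alone kept its call. There miR-362-3p lay at -0.12, miR-532-3p at -0.26, miR-532-5p at -0.16, miR-188-5p at -0.0171, miR-188-3p at -0.0406, miR-329-3p at -0.10 and miR-511-5p at -0.0744, and the pairs of miR-188-3p minus miR-532-3p, miR-188-5p minus miR-532-5p and miR-362-3p minus miR-500-3p at 0.22, 0.14 and -0.51. Other turns of direction were those of miR-188-3p with the 75th percentile (-0.24, called, against a call at 0.40 with spikes) and over the omissions of single arrays (-0.0506 to 0.0900, below 0 without hepatocyte array 1 or LSEC array 2), of miR-500-5p (0.0247) and miR-501-5p (0.18) with spikes, and of miR-652-5p with spikes (0.54). Also turned were miR-329-3p (-0.0671 with the median, -0.34 and called with the 75th percentile), miR-511-5p (-0.0127 and, called, -0.29) and miR-3573-3p (0.38, 0.10, 0.46, 1.31 and 0.12 with the median, the 75th percentile, no normalization, spikes and the authors' values).

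The 240 miRNAs called became 18 with the background column, 532 with the 75th percentile and 454 with spikes, and 116 to 231 without any 1 array. Of the called miRNAs, 50.4% were higher in LSECs, against 61.0% with the median, 25.0% with the 75th percentile, 84.7% without normalization, 95.4% with spikes and 63.8% in the authors' values. Members called higher in LSECs numbered 6, against 1 with the background column, and 4 to 6 without any 1 array. Members called higher in hepatocytes numbered 1, against 0 with the background column, without normalization and with spikes, 3 with the 75th percentile, 2 in the authors' values, and 0 to 1 without any 1 array. Hairpins with a called arm difference numbered 117, against 13 with the background column and 74 of 131 in the authors' values, and 99 to 131 without any 1 array. Other chromosome X miRNAs called numbered 29, against 0 with the background column, 68 with the 75th percentile, 16 without normalization, 44 with spikes, and 11 to 24 without any 1 array. Neighbouring pairs called numbered 220, against 2 with the background column, 117 in the authors' values, 124 with detection at 5 SD, 118 among miRNAs detected on all 4 arrays, and 149 to 245 without any 1 array. The authors' values and both stricter detection filters tested fewer miRNAs, and the cause of the other changes was not tested.

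With the replicate number as a block 200 miRNAs were called, and the member calls were 6 and 1 as before. The block ended the call of miR-3560 (adjusted p = 0.0901) and gave one to miR-362-5p minus miR-532-5p (adjusted p = 0.0113). The low signals of all members in hepatocytes, at most 12.96 blank SDs, limit how well their folds are known.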
